A study of Mus musculus with 8 samples.

Results

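The MYC and MAX network comprises Myc and 9 further genes whose products meet on, or compete for, a shared DNA sequence: Mycn, Max, Mxd1, Mxd3, Mxd4, Mxi1, Mnt, Mga and Mlx. The members were chosen by gene name from the deposited gene tables, in which all 10 were found among 38215 genes listed. MYC activates transcription only when paired with MAX, and binds the E-box CACGTG. The MXD proteins, among them MXI1, pair with the same MAX, bind the same E-box and recruit SIN3 and histone deacetylases to repress it, so that the outcome for a target gene depends on the balance between the pairs. In T cells, MYC is induced by TCR and IL-2 signals and drives growth and metabolism, whereas several MXD genes are characteristic of resting cells.

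The series holds 8 RNA libraries, 4 from regulatory T cells of the bone marrow (BM-Treg) and 4 from those of the spleen (SP-Treg). The cells were sorted for FoxP3, marked by GFP, from untreated B6.FoxP3-GFP animals at 12 weeks of age. The labels give the genotype of every library as C57Bl/6, and the groups differ by design in tissue. BM-Treg replicates 1 to 3 were labelled batch 1 and female, while BM-Treg replicate 4 and every SP-Treg library were labelled batch 3 and male, so that batch and sex cannot be told apart from each other and are largely confounded with tissue. The methods call the libraries biological replicates, without tying each to an animal, and p-values measure the spread between these libraries. The methods name female mice unless stated and a legend gives fewer replicates per tissue, whereas the sexes and the 8 libraries used here are those of the labels.

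Expected counts, which are estimated reads per gene, summed to between 12427136 and 21921252 per library. Levels are given either as CPM, counts scaled to a common library depth by the TMM method, or as FPKM, in which counts are also divided by transcript length and which therefore allow different genes to be compared. The expression filter kept 13397 genes (35.1% of those listed), and each was tested in edgeR (quasi-likelihood F-test), with p-values adjusted over all of them by the Benjamini-Hochberg method and a threshold of 0.05. A negative log2 fold change means a lower level in BM-Treg, and the median over all genes tested was -0.012. The summed CPM of 7 genes expressed by Treg (Foxp3, Il2ra, Ctla4, Ikzf2, Tnfrsf18, Cd4 and Cd3e) was between 7470 and 8973 in every library. Cd4 and Cd3e are also expressed by other CD4 T cells, so the sum is not a measure of Treg identity alone. Il2ra itself, the IL-2 receptor alpha chain, had between 738 and 940 CPM in BM-Treg and had 849, 944, 1434 and 1676 CPM in SP-Treg (log2 fold change -0.62 ± 0.20, SE; unadjusted p = 0.00951 and adjusted p = 0.0803, edgeR), highest in replicates 3 and 4, and DESeq2 called it lower in BM-Treg.

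Myc, the activating arm of the network, was lower in BM-Treg, at 0.485 of its level in SP-Treg (95% confidence interval from 0.321 to 0.733, n = 4 per tissue). It was the only member called of the 9 that were tested, where 8.75% of all genes tested were called in either direction and 5.02% were called lower in BM-Treg. Max, its obligate partner, and the repressive members did not pass the test. The MXD genes summed to 70.4 ± 8.25 FPKM in BM-Treg and to 64.6 ± 11.5 FPKM in SP-Treg (SD, n = 4), where Myc averaged 29.0 ± 4.25 and 52.9 ± 21.8 FPKM, and Myc exceeded their sum in 2 of the 8 libraries, both of them SP-Treg.

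Levels per length spanned a wide range and gave the following order by the median FPKM over the 8 libraries. Max was the highest member at 133 FPKM, with every library between 113.7 and 162.5. Mga followed at 48.5 FPKM (from 37.0 to 62.6), Mxd4 at 37.0 FPKM (from 24.8 to 47.8) and Myc at 33.3 FPKM (from 25.0 to 76.1). The ranges of these 3 genes overlapped, so that their order is not resolved from gene levels. The level of Mga is summed over transcripts that include some without a coding sequence in the annotation, such as Mga-205 and Mga-213. Mga-201, its highest coding transcript, made up 26.7% ± 7.61 of it in BM-Treg and 27.35% ± 4.84 in SP-Treg (SD, n = 4). Mga-201 reached at most 15.5 FPKM in any library, below every Myc value. The place of Mga in this order is therefore not that of its coding RNA alone. Mxd1 had a median of 20.1 FPKM (from 14.5 to 22.7) and lay below every Myc and Mxd4 value. Mlx, Mnt and Mxi1, with medians of 13.2, 9.64 and 7.79 FPKM, each overlapped their neighbour in this order. Mxd3, at 2.66 FPKM (from 1.94 to 4.98), was below all of these in every library.

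**Figure D1:**
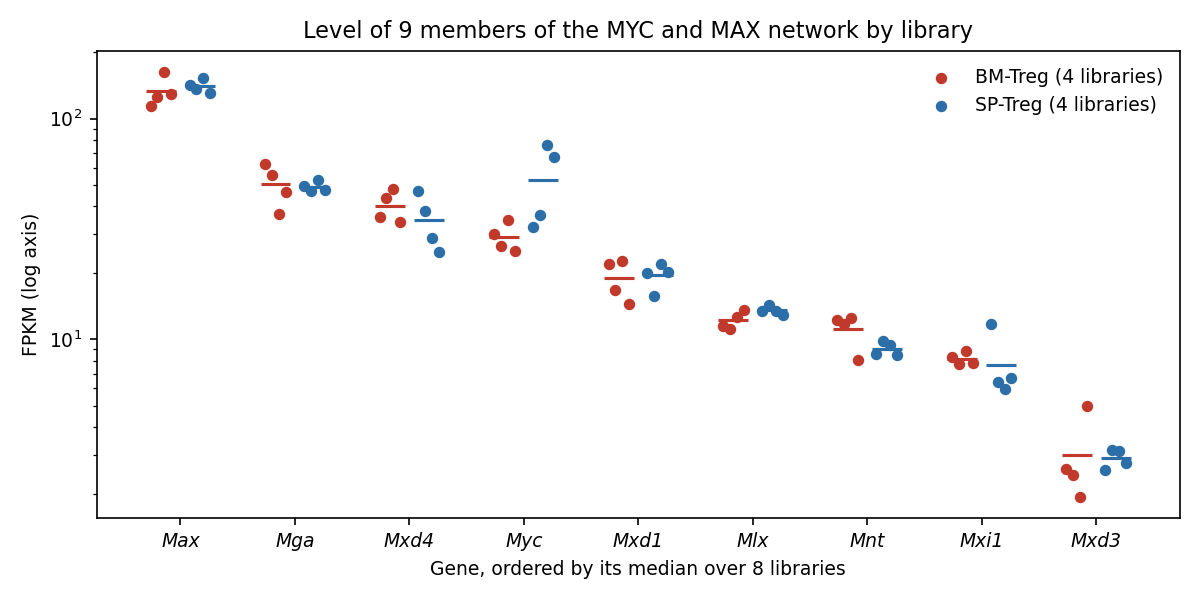
FPKM (log axis) of 9 members in each library, with BM-Treg in red, SP-Treg in blue and a line at the mean of each tissue; Mycn, at 0 FPKM in 7 libraries, is not drawn. Max lay between 113.7 and 162.5 FPKM in every library, and Myc had 2 SP-Treg libraries, at 66.8 and 76.1 FPKM, well above its other values.

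Myc (ENSMUSG00000022346, chr15:61985391-61990374 on the plus strand of GRCm38) had 46.3, 40.3, 53.0 and 44.4 CPM in BM-Treg replicates 1 to 4. In SP-Treg replicates 1 to 4 it had 56.5, 69.1, 135.6 and 118.3 CPM. All BM-Treg libraries were below all SP-Treg libraries, as in 8.57% of all genes tested, but the SP-Treg libraries fell into a lower pair (replicates 1 and 2) and a higher pair (replicates 3 and 4). The log2 fold change was -1.04 ± 0.26 (SE), with a 95% confidence interval from -1.64 to -0.45 and an adjusted p of 0.0413 (edgeR). Within batch 3, BM-Treg replicate 4 against the SP-Treg libraries gave -1.09, with no test. In bulk RNA, fewer cells that express a gene and less RNA per cell cannot be told apart.

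The call for Myc was close to the threshold and depended on the libraries and the fit. The direction was kept under every alternative, with log2 fold changes from -1.21 to -0.77, but the call was lost in 11 of 18 that carry a test. With a batch term the adjusted p was 0.284 (edgeR), with limma-voom 0.0649 and on log2(FPKM + 1) with limma-trend 0.102, whereas DESeq2 gave 0.00018. Leaving out BM-Treg replicate 1, 2, 3 or 4 gave adjusted p-values of 0.119, 0.113, 0.0769 and 0.101 (edgeR), and leaving out SP-Treg replicate 3 or 4 gave 0.0521 and 0.0929. Leaving out SP-Treg replicate 1 or 2 kept the call, at 0.00486 and 0.0307. In FPKM the tissues overlapped, since SP-Treg replicate 1, at 32.1 FPKM, was below BM-Treg replicate 3, at 34.5 FPKM.

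Mycn (ENSMUSG00000037169, chr12:12936096-12941914, minus strand), the MYC paralog of neural and embryonic tissue, was not detected in 7 libraries and had 1 count in SP-Treg replicate 1 (0.0719 CPM). Each 0 allows up to 3 counts, or between 0.132 and 0.251 CPM per library, a limit that covers counting error only. It did not pass the expression filter and was not tested.

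Max (ENSMUSG00000059436, chr12:76937269-76962248, minus strand) had 209, 229, 299 and 256 CPM in BM-Treg, while the SP-Treg libraries had 253.5, 275, 317 and 259.5 CPM. The libraries of the tissues overlapped, and the log2 fold change was -0.15 ± 0.12 (SE; 95% confidence interval from -0.41 to 0.10; adjusted p = 0.482, edgeR). Max was above Myc per length in every library: the ratio of Myc to Max in FPKM was between 0.194 and 0.263 in BM-Treg and was 0.226, 0.270, 0.497 and 0.511 in SP-Treg.

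Of the MXD genes, Mxd4 (ENSMUSG00000037235, chr5:34173887-34187720, minus strand) was the most abundant per length. It had 131, 157, 173.5 and 133 CPM in BM-Treg and, in the spleen, 165, 152, 117 and 97.6 CPM, so that the lowest values were those of SP-Treg replicates 3 and 4, the libraries with the highest Myc. The tissues overlapped, at a log2 fold change of 0.16 ± 0.16 (SE; adjusted p = 0.583, edgeR).

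Mxd1 (ENSMUSG00000001156, chr6:86647044-86669159, minus strand), the MAD1 gene of differentiating cells, had 97.0, 72.8, 100.2 and 69.1 CPM in BM-Treg. In SP-Treg it had 85.0, 76.2, 109 and 96.4 CPM, within much the same range (log2 fold change -0.11 ± 0.14, SE; adjusted p = 0.691, edgeR).

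Mxi1 (ENSMUSG00000025025, chr19:53310506-53375810, plus strand) had 39.7, 36.5, 42.0 and 40.2 CPM in BM-Treg, compared with 52.8, 33.6, 30.8 and 34.3 CPM in SP-Treg. Its log2 fold change was 0.06 ± 0.15 (SE; adjusted p = 0.850, edgeR), with SP-Treg replicate 1 above and the other SP-Treg libraries below all BM-Treg libraries.

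Mxd3 (ENSMUSG00000021485, chr13:55325168-55329758, minus strand), which is tied to the S phase of dividing cells, was low, with 3.43, 3.12, 2.53 and 7.19 CPM in BM-Treg, while the SP-Treg libraries had 3.21, 4.32, 4.56 and 3.72 CPM. BM-Treg replicate 4 held the highest value, and the interval of the log2 fold change was the widest of the members, from -0.68 to 0.72 around 0.02 (adjusted p = 0.976, edgeR). Within batch 3 the log2 fold change was 0.86, outside that interval, and with a batch term, which rests on BM-Treg replicate 4, it was also 0.86 (unadjusted p = 0.0333 and adjusted p = 0.228, edgeR).

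Mnt (ENSMUSG00000000282, chr11:74830920-74845725, plus strand), a repressor that is expressed in most cells and also pairs with MAX, had 51.4, 47.2, 52.5 and 37.7 CPM in BM-Treg and, in the spleen, 36.0, 44.9, 43.4 and 37.2 CPM. BM-Treg replicates 1 to 3 were above all SP-Treg libraries and BM-Treg replicate 4 was not. The log2 fold change of 0.23 ± 0.13 (SE) was the largest among the members that were not called (adjusted p = 0.312, edgeR), and it was -0.10 within batch 3.

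Mga (ENSMUSG00000033943, chr2:119897228-119969581, plus strand), the largest protein of the network and a scaffold of a Polycomb repressive complex, had 272, 250.6, 211 and 223 CPM in BM-Treg, compared with 271, 280, 259 and 235 CPM in SP-Treg. Mlx (ENSMUSG00000017801, chr11:101087277-101092207, plus strand), which takes the place of MAX beside some MXD proteins and the glucose sensors of the MONDO family, had 17.2, 15.0, 15.4 and 19.7 CPM in BM-Treg, while the SP-Treg libraries had 13.1, 15.1, 17.7 and 16.6 CPM. The libraries of the tissues overlapped in both genes, with log2 fold changes of -0.13 ± 0.11 and 0.11 ± 0.15 (SE; adjusted p = 0.518 and 0.724, edgeR).

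The 8 members other than Myc had log2 fold changes from -0.15 to 0.23, and none was called by edgeR, DESeq2 or limma-voom, nor had an unadjusted p under 0.05 in the edgeR fit without a batch term. Their 95% confidence intervals lay between -0.68 and 0.72, and smaller differences cannot be told from the spread between libraries.

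**Figure D2:**
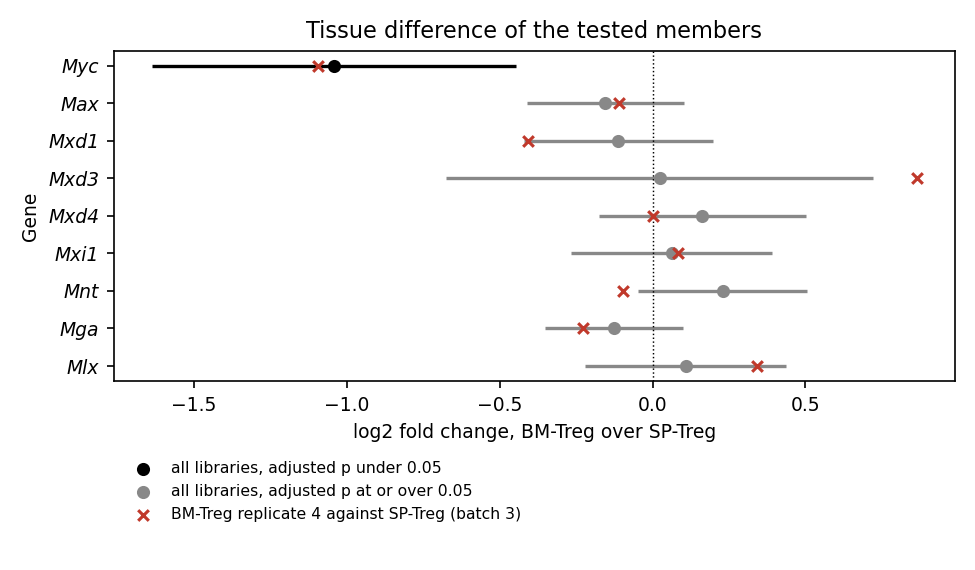
Log2 fold change (BM-Treg over SP-Treg) of the 9 tested members with 95% confidence intervals from edgeR, in black for Myc (adjusted p = 0.0413) and in grey for the others, and a red cross for BM-Treg replicate 4 against the SP-Treg libraries of batch 3. The interval of Myc, from -1.64 to -0.45, lies to the left of 0 and those of the other members cross it.

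The MYC to MXD balance was calculated in each library as the log2 ratio of the FPKM of Myc and Mycn to the summed FPKM of Mxd1, Mxd3, Mxd4 and Mxi1. It was -1.20, -1.42, -1.23 and -1.29 in BM-Treg replicates 1 to 4. In SP-Treg replicates 1 to 4 it was -1.33, -0.78, 0.35 and 0.29. Thus BM-Treg libraries lay close together, while SP-Treg libraries spread from the BM-Treg range, which held replicate 1, to a balance in favour of Myc in replicates 3 and 4. On the linear scale the ratio was 0.434, 0.375, 0.425 and 0.409 in BM-Treg, against 0.397, 0.581, 1.27 and 1.23 in SP-Treg.

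The mean balance was -1.29 ± 0.09 (SD, n = 4) in BM-Treg, against -0.37 ± 0.83 (SD, n = 4) in SP-Treg, a difference of -0.92 ± 0.42 (SE) that is given without a test. BM-Treg replicate 4 against the SP-Treg libraries of its batch gave a difference of -0.92. Taken from expected counts that were not divided by length, the difference was -1.02 and the tissues did not overlap. Leaving out SP-Treg replicate 3 or 4 brought the difference to -0.68 or -0.70, and leaving out SP-Treg replicate 1 brought it to -1.24.

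Both sides of the ratio varied within SP-Treg. The summed FPKM of the MXD genes was 68.7, 70.5, 81.3 and 61.3 in BM-Treg, against 81.0, 63.2, 59.7 and 54.5 in SP-Treg, lowest in the SP-Treg libraries in which Myc was highest. Mxd4 made up 57.1% ± 4.18 (SD, n = 4) of that sum in BM-Treg, against 52.8% ± 7.19 (SD, n = 4) in SP-Treg, and Mxd1 made up 26.8% ± 3.98 (SD, n = 4) and 30.9% ± 7.12 (SD, n = 4). Set against single antagonists, the ratio of Myc to Mxd4 in FPKM was between 0.605 and 0.832 in BM-Treg and was 0.687, 0.966, 2.65 and 2.70 in SP-Treg. The ratio of Myc to Mnt did not overlap between the tissues, at 2.44, 2.25, 2.75 and 3.11 in BM-Treg, against 3.75, 3.72, 8.09 and 7.88 in SP-Treg.

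**Figure D3:**
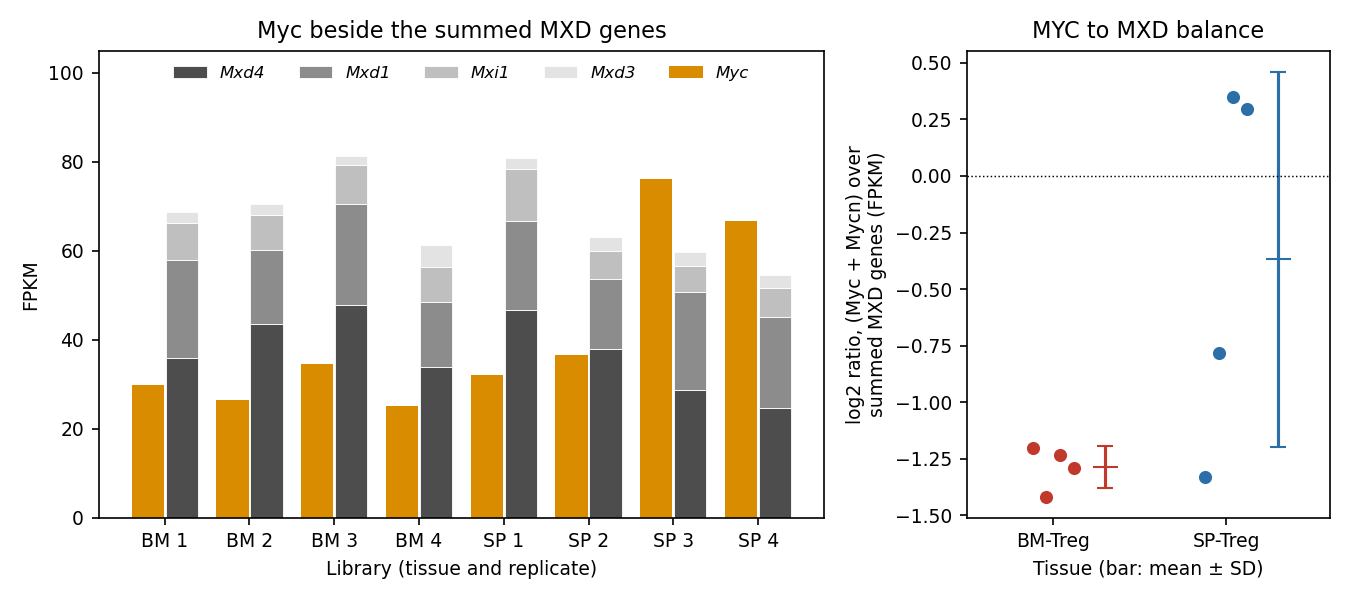
Left, FPKM of Myc (orange) beside the stacked FPKM of Mxd4, Mxd1, Mxi1 and Mxd3 (greys) in each library; right, the log2 MYC to MXD balance of each library with the mean ± SD of each tissue (n = 4). Myc exceeds the summed MXD genes in SP-Treg replicates 3 and 4, at balances of 0.35 and 0.29, and SP-Treg replicate 1, at -1.33, lies among the BM-Treg libraries.

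Transcripts that begin or splice differently can change what a member makes. Of 45 member transcripts listed, 29 passed the filter and none was called by edgeR, where 0.146% of 28756 transcripts tested were called; 5 had an unadjusted p under 0.05 and the lowest adjusted p was 0.186. Transcript counts are estimates whose assignment error the test does not cover. The leading Myc transcript, Myc-206, made up 48.0% ± 7.16 (SD, n = 4) of the gene's transcript FPKM in BM-Treg, against 53.0% ± 1.04 (SD, n = 4) in SP-Treg, and Myc-201 and Myc-205 were listed with identical values, so that the reads did not separate them. Of 28 tested member transcripts from genes with at least 2 listed, 3 had shares that did not overlap between the tissues in either direction, where 4.99% of 23831 such transcripts did: Myc-202, Myc-204 and Mlx-204. Myc-202 made up 3.64% ± 2.49 in BM-Treg and 11.5% ± 1.73 in SP-Treg, and Myc-204 made up 9.83% ± 4.09 in BM-Treg and 1.99% ± 1.78 in SP-Treg (SD, n = 4), while neither passed the test of its level (adjusted p = 0.331 and 0.798, edgeR). Both are annotated with a coding length of 1317 bases, so these shares do not show a change in the protein made. Myc-202 was at 0 FPKM in BM-Treg replicate 1, and Myc-204 was at 0 FPKM in SP-Treg replicate 1.

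Max was made as 2 coding transcripts that differ by a short coding stretch near the start of the protein. Max-201 has a coding length of 453 bases and Max-202 of 480 bases. The stretch of 27 bases, or 9 codons, found in Max-202 only is at chr12:76961263-76961289 (GRCm38, minus strand). It is shown because it is what separates the short from the long MAX protein, in capitals between the 12 coding bases on each side in the spliced transcript:

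Max-202: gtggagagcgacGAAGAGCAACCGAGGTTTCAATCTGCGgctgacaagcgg

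The share of Max-202 in the FPKM of Max was 28.2%, 32.4%, 36.6% and 40.2% in BM-Treg, against 37.9%, 44.7%, 43.4% and 39.3% in SP-Treg. BM-Treg replicate 4 lay within the SP-Treg range and the other BM-Treg libraries below it, and Max-202 did not pass the test (log2 fold change -0.40 ± 0.22, SE; adjusted p = 0.556, edgeR).

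In Mlx, the transcript Mlx-204, which has no coding sequence in the annotation, made up 15.5%, 28.7%, 26.1% and 24.8% of the gene's FPKM in BM-Treg, against 52.2%, 41.2%, 35.5% and 39.0% in SP-Treg. The shares of the tissues did not overlap, while the level of the transcript did not pass the test (log2 fold change -0.998 ± 0.345, SE; adjusted p = 0.288, edgeR). Mxi1-203, which ranged from 1.68% to 27.6% of the FPKM of Mxi1 in BM-Treg and from 14.2% to 88.0% in SP-Treg, varied widely between libraries of both tissues.

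The proteins that carry out MYC's effect on chromatin, and those that control its stability, were compared as lists. Of 20 coregulators, such as TRRAP and the SIN3 and HDAC repressors, none was called by edgeR or limma-voom, although 2 had an unadjusted p under 0.05, and DESeq2 called 1, Ruvbl1. Their median log2 fold change was -0.04. Of 16 genes that act on the turnover of MYC, 1 (6.25%) was called, a share near the 5.02% called lower among all genes tested: Usp37, a deubiquitinase that stabilises MYC. It had 44.6, 46.7, 44.6 and 37.6 CPM in BM-Treg and, in the spleen, 66.0, 55.8, 55.0 and 54.5 CPM, without overlap (log2 fold change -0.41 ± 0.11, SE; adjusted p = 0.0349, edgeR). That call was lost with a batch term and when any BM-Treg library or SP-Treg replicate 1 or 2 was left out, with 0 genes of the list called in each case, and limma-trend on log2(FPKM + 1) called Axin1, higher in BM-Treg, in its place. Fbxw7, the ubiquitin ligase that targets MYC for degradation, had 54.7 ± 4.91 CPM in BM-Treg, compared with 53.3 ± 8.58 CPM in SP-Treg (SD, n = 4; chosen after its values were seen).

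Of Mycl, Mlxip and Mlxipl, the remaining genes of the extended network, only Mlxip passed the filter. Mlxip, the MONDOA glucose sensor that pairs with MLX, had 154, 149.6, 152.7 and 155 CPM in BM-Treg, while the SP-Treg libraries had 132, 133.5, 135.7 and 128 CPM. The libraries did not overlap, as in 7.58% of all genes tested with BM-Treg higher. The difference was not called (log2 fold change 0.21 ± 0.09, SE; unadjusted p = 0.0270 and adjusted p = 0.151, edgeR), and neither DESeq2 nor limma-voom called it. Its targets Txnip and Arrdc4 were not called by these tools, with 1 of the 2 at an unadjusted p under 0.05 in edgeR. Txnip, which restrains glucose uptake, was at 303, 323, 281 and 235 CPM in BM-Treg and, in the spleen, 292, 237.5, 149.8 and 169 CPM, where the lowest values were again those of replicates 3 and 4. Its log2 fold change was 0.43 ± 0.195 (SE, adjusted p = 0.214, edgeR). Arrdc4 went the other way (log2 fold change -0.53 ± 0.32, SE, adjusted p = 0.3665, edgeR). It had 37.2, 44.0, 53.6 and 24.5 CPM in BM-Treg and 83.7, 68.9, 35.1 and 43.1 CPM in SP-Treg.

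Of 48 genes that MYC is known to activate, all of which were tested, 21 (43.8%) were called lower in BM-Treg, where 5.02% of all genes tested were, and none was called higher, where 3.72% of all genes tested were. This list, like that of repressed genes below, was chosen with earlier results of these data known, so its counts are no independent evidence. At an unadjusted p under 0.05, 31 were lower and 1 was higher, and limma-voom called 21 lower and none higher, while DESeq2 called 28 lower and 1 higher. Over all genes and in either direction, edgeR called 1172, limma-voom 1218 and DESeq2 1703. For counts at an unadjusted p under 0.05, in this list and the others, no share over all genes is given for comparison. The log2 fold change was negative in 44 of the 48, with a median of -0.49 against -0.012 over all genes tested. The libraries did not overlap in 25 that were lower, where 8.57% of all genes tested behaved so. With a batch term the calls fell to 4 lower (Dkc1, Hk2, Hspe1 and Mybbp1a), where 1.1% of all genes tested were called lower. When a library was left out, the number called was between 14 (without BM-Treg replicate 1) and 21.

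Hk2, which traps glucose in the cell as the opening step of glycolysis, differed most. It had 2.19, 2.04, 2.46 and 1.09 CPM in BM-Treg, compared with 6.62, 6.46, 7.20 and 9.996 CPM in SP-Treg (log2 fold change -1.93 ± 0.28, SE; adjusted p = 0.00116, edgeR). These BM-Treg values rested on few reads, since 3 counts equal 0.251 CPM in BM-Treg replicate 4. Hspd1 and Hspe1, which form the chaperonin of the mitochondrial matrix, are transcribed from a shared promoter region. Hspd1 had between 116 and 170 CPM in BM-Treg, while the SP-Treg libraries had 542, 456, 267 and 248.5 CPM (log2 fold change -1.44 ± 0.26, SE; adjusted p = 0.0109, edgeR). Its SP-Treg values were highest in replicates 1 and 2, the libraries in which Myc was lowest. Hspe1 had between 28.2 and 35.8 CPM in BM-Treg, and its 4 SP-Treg values lay between 61.6 and 88.7 CPM (log2 fold change -1.18 ± 0.13, SE; adjusted p = 0.000185, edgeR). Apex1, an enzyme of base excision repair, had 4.47, 4.23, 7.13 and 5.01 CPM in BM-Treg and, in the spleen, 10.7, 11.8, 14.0 and 11.99 CPM (log2 fold change -1.21 ± 0.21, SE; adjusted p = 0.00258, edgeR).

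By function, in a grouping made after the values were seen, the calls were spread over the list. Of 19 genes of the nucleolus and ribosome assembly, 8 were lower (Ncl, Npm1, Nop58, Fbl, Pa2g4, Nolc1, Mybbp1a and Dkc1), with a group median of -0.45. Of 12 genes of nucleotide, folate and polyamine synthesis, 5 were lower (Srm, Ppat, Paics, Impdh2 and Mthfd2), with a median of -0.52. Of 7 genes of glycolysis and nutrient uptake, 4 were lower (Hk2, Ldha, Slc7a5 and Tfrc), with a median of -0.53. Both chaperonin genes but neither prohibitin were called among 4 mitochondrial genes, and Eif4e and Apex1 were called among 6 genes of translation, cell cycle and DNA repair. The 4 genes of the list with a positive log2 fold change, named after their values were seen, were Bop1 at 0.04, Tcof1 at 0.18, Odc1, the rate-limiting enzyme of polyamine synthesis, at 0.25, and Slc2a1, the glucose transporter GLUT1, at 0.31. None was called by edgeR. Slc2a1 had 56.1 ± 1.57 CPM in BM-Treg without overlap with 45.4 ± 3.93 CPM in SP-Treg (SD, n = 4; unadjusted p = 0.0105 and adjusted p = 0.0854, edgeR), and it was the gene that DESeq2 called higher.

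**Figure D4:**
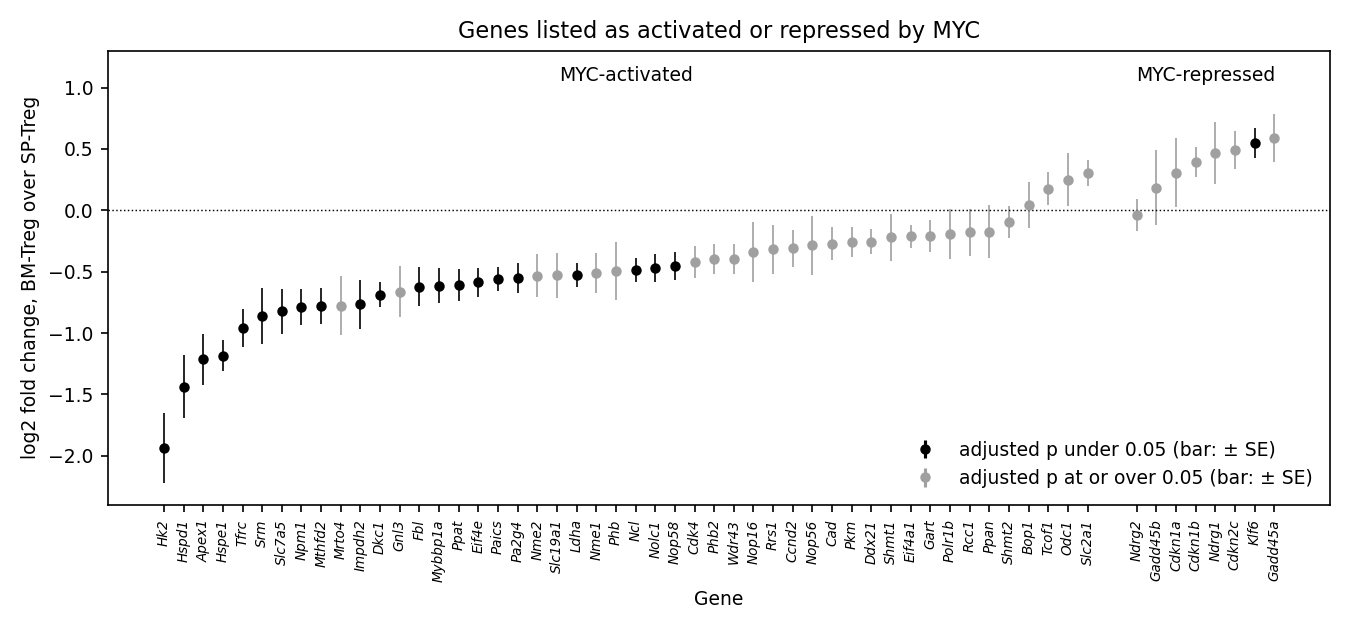
Log2 fold change (BM-Treg over SP-Treg, ± SE) of the 48 tested genes listed as activated by MYC and the 8 listed as repressed, each sorted by value, in black where the adjusted p from edgeR was under 0.05. In the activated list 44 lie below 0 and 21 of these are black; in the repressed list 7 lie above 0 and 1, Klf6, is black.

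The summed CPM of the activated genes was 3606, 3747, 4152 and 4127 in BM-Treg, against 5501, 5226, 5584 and 5699 in SP-Treg, without overlap. Within SP-Treg the sums lay close together where Myc did not. Replicates 1 and 2 (56.5 and 69.1 CPM of Myc) had sums close to those of replicates 3 and 4 (135.6 and 118.3 CPM). Abundant genes of the list moved in opposite directions between these replicates. In SP-Treg replicates 1 to 4, Npm1 had 682, 791, 1018 and 991 CPM and Nop56 had 119, 165, 281 and 239 CPM. Hspd1 fell, at 542, 456, 267 and 248.5 CPM, as did Ccnd2, at 704, 571, 542 and 483 CPM. These genes were named after their values were seen. Whether the list as a whole followed Myc within SP-Treg was not tested.

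**Figure D5:**
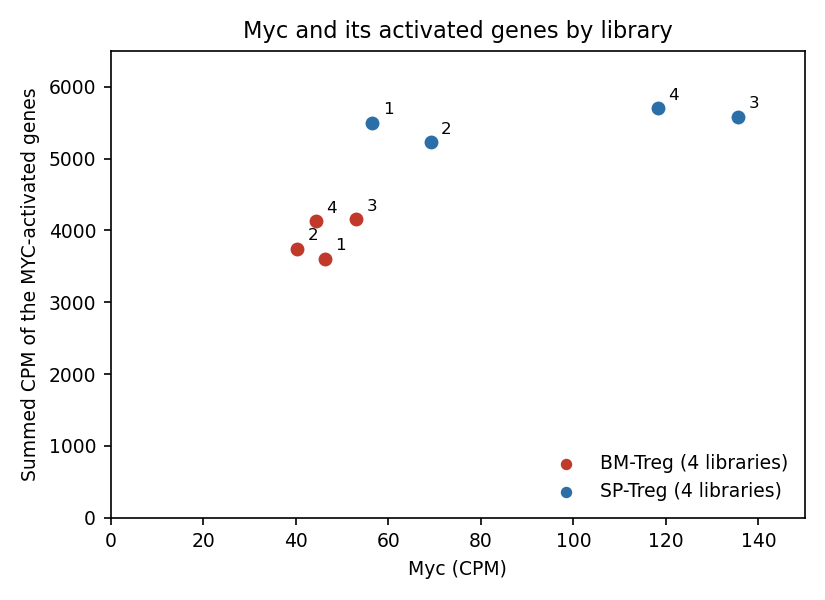
Summed CPM of the 48 MYC-activated genes (vertical axis) against the CPM of Myc (horizontal axis), with a point for each library numbered by its replicate, BM-Treg in red and SP-Treg in blue. The BM-Treg libraries lie between 3606 and 4152 and the SP-Treg libraries between 5226 and 5699, although SP-Treg replicate 1 had 56.5 CPM of Myc against 53.0 in BM-Treg replicate 3.

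Of 10 genes that MYC is known to repress, 8 passed the filter, 1 was called higher in BM-Treg, where 3.72% of all genes tested were, and none was called lower by edgeR, DESeq2 or limma-voom. All 4 with an unadjusted p under 0.05 were higher, and DESeq2 called these 4 (Cdkn1b, Cdkn2c, Gadd45a and Klf6). The log2 fold change was positive in 7 of the 8, with a median of 0.43. Klf6, a zinc finger factor that restrains growth, was called, with 232, 217.5, 246 and 281 CPM in BM-Treg, compared with 183, 184, 170 and 130 CPM in SP-Treg (log2 fold change 0.55 ± 0.12, SE; adjusted p = 0.0131, edgeR). The count rose to 2 when BM-Treg replicate 4 or SP-Treg replicate 1 was left out. The summed CPM of the list was between 568 and 610 in BM-Treg, against a range between 372 and 464 in SP-Treg.

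The E-box CACGTG, which reads the same on both strands, was searched for in RefSeq promoters of GRCm38.p6, from 250 bases before to 50 bases after each start. It was present in 7.15% of 32851 promoters and, counted by gene, in 8.09% of 27025 genes. Of the 9 members with a promoter in the table, 4 held it: Max, Mlx, Mnt and Mxd4. No promoter of Myc was in the table. Windows of 30 bases around these E-boxes are shown, with CACGTG in capitals, since the network's own genes could carry the sequence that its proteins bind.

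Max, chr12:76962234-76962263, minus strand: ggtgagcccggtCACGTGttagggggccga
Mlx, chr11:101087238-101087267, plus strand: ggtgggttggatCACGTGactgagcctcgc
Mnt, chr11:74830789-74830818, plus strand: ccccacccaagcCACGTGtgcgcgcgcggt
Mxd4, chr5:34187912-34187941, minus strand: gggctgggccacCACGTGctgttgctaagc

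Among the MYC-activated genes, 12 of 40 with a promoter in the table held the E-box: 7 of 17 that were called lower in BM-Treg (41.2%) and 5 of 23 that were not (21.7%). The difference between these shares, which rest on few genes, was not tested. The share of 8.09% above is over all genes with a promoter in the table, not over those that passed the expression filter. The 7 were Apex1, Eif4e, Hspd1, Impdh2, Ldha, Mybbp1a and Paics. Apex1 held 3 E-boxes within its window, the most of any called gene, at bases -24, 1 and 22 from the start. Those of Apex1 and the one of Hspd1, at base -80, are shown because these genes were among the 4 with the largest differences.

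Apex1, chr14:50924913-50924942, plus strand: gcgctccagaacCACGTGggggcggagccc
Apex1, chr14:50924937-50924966, plus strand: gagccctcgaatCACGTGaccacaccaatc
Apex1, chr14:50924958-50924987, plus strand: acaccaatcgccCACGTGggaacaggcaga
Hspd1, chr1:55088306-55088335, minus strand: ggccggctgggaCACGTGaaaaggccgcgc

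A match is a description of the letters in these windows. Binding of MYC, MAX or an MXD protein was not measured in this series.

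The genes whose log2 CPM followed Myc most closely over the 8 libraries were sought among 8556 genes whose log2 CPM averaged at least 3. These correlations rest on few libraries that also differ in tissue, and SP-Treg replicates 3 and 4 set much of the range of Myc, so that they are given as a description. The highest were Lrrc32 (Pearson's r = 0.979), Rexo2 (0.968), Srsf2 (0.964), Gpr83 (0.960) and Eif4a1 (0.959). Lrrc32, which encodes GARP, the receptor that holds latent TGF-beta on Treg, had 218, 165, 194 and 200 CPM in BM-Treg, while the SP-Treg libraries had 264, 389, 676 and 638 CPM. The lowest were Plec (-0.989), Arrb1 (-0.985), Tln1 (-0.984), Paqr7 (-0.980) and Samhd1 (-0.970). Plec, a cytoskeletal linker, had between 373 and 407 CPM in BM-Treg and, in the spleen, 346, 322, 193 and 223 CPM. Among the members, the correlation with Myc was 0.62 for Max and for Mxd1, -0.69 for Mxd4 and -0.57 for Mxi1. It was weaker for Mnt (-0.31), Mga (0.10) and Mlx (0.14), and Mycn and Mxd3 were not among the genes compared.

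Markers of other cells differed between SP-Treg libraries. The summed CPM of 8 erythroid genes, mainly haemoglobins, was between 15.2 and 34.1 in BM-Treg and was 2.63, 191, 463 and 297 in SP-Treg replicates 1 to 4, so that the SP-Treg library with the lowest Myc and balance had the least and those with the highest Myc had the most. Of the 6 erythroid genes tested, none was called by edgeR or limma-voom, all 6 were lower in BM-Treg at an unadjusted p under 0.05 in edgeR, and DESeq2 called 3. The sum of 8 B cell genes was between 11.8 and 15.6 CPM in BM-Treg and was 8.13, 107, 23.5 and 18.6 CPM in SP-Treg, and that of 10 neutrophil genes was at most 19.2 CPM, with Ly6g at 0 in every library. Of the 5 B cell genes tested, all 5 had negative log2 fold changes. Only 1, Ebf1, was called lower in BM-Treg (adjusted p = 0.0332, edgeR), where 5.02% of all genes tested were. The sum of 10 proliferation genes, Mki67 among them, ranged from 1017 to 2138 CPM in BM-Treg and from 1506 to 1884 CPM in SP-Treg, and much of it was Mki67 (from 586 to 1407 CPM over all libraries). Of these genes 9 had negative log2 fold changes, 4 were lower at an unadjusted p under 0.05 in edgeR, and Mcm5, a subunit of the replicative helicase, was called. It had 16.01, 15.03, 12.9 and 20.3 CPM in BM-Treg, below the 33.4, 21.9, 30.1 and 37.4 CPM of SP-Treg (log2 fold change -0.94 ± 0.18, SE; adjusted p = 0.00463, edgeR). None of the 7 marker sums passed the test between the tissues (exact two-sided permutation tests of log2 sums, n = 4 per tissue, p from 0.2 to 0.943, with 0.0286 the smallest possible). The plasma cell sum was mostly Prdm1, at 287 to 431 CPM over all libraries, so its test says little about the other genes of that list. Among these, Jchain had at most 0.395 CPM in BM-Treg and had 0.216, 24.7, 8.96 and 5.66 CPM in SP-Treg replicates 1 to 4. Ccr9, at 8.78 to 41.8 CPM, was likewise a large part of the plasmacytoid dendritic cell sum. Without SP-Treg replicate 1, the log2 difference of the erythroid sum was -3.72 in place of -2.08 and that of the B cell sum was -1.41 in place of -0.889, with every BM-Treg library below the remaining SP-Treg libraries in both. With 4 against 3 libraries, the exact permutation p of 0.0571 in both is the smallest possible, so that 0.05 could not be reached. The part of these markers in the differences of Myc and of the balance was not tested.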

How the data were processed

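The authors deposited tables of expected counts and of FPKM per gene and per transcript, with 1 column per library and no normalization of the expected counts between libraries. According to the submitters' processing notes these were made with cutadapt 1.9, STAR 2.5.2a and RSEM 1.2.30 on GRCm38. RNA had been amplified by single primer isothermal amplification and read from 1 end over 80 nt, without molecular identifiers, so that floors from counts cover counting error only. The authors' FPKM values were used for levels per length and for the balance.

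Expected counts were rounded to whole numbers, filtered by edgeR's default rule on the tissues, normalized by TMM and tested over all genes with edgeR's robust quasi-likelihood test and no covariate. The fits ran in R 4.3.3 (edgeR 4.0.16, DESeq2 1.42.0, limma 3.58.1), and the edgeR fits were tested on simulated data. The simulated counts held a tissue effect but no effect of batch or sex, so they say nothing about that confounding. Log2 CPM used a prior count of 2 and marker sums a pseudocount of 0.5. The members and the gene lists (coregulators, turnover, MYC-activated, MYC-repressed and markers; 164 distinct genes, of which 6 were matched under older symbols) were chosen with earlier results of these data known, so that counts over lists are no independent evidence. Genes named were mainly the members, up to 4 called genes of largest change per list, and the 5 highest and 5 lowest correlations with Myc. Others, such as Il2ra, Txnip and Arrdc4, were named outside this rule, and only some of these are marked as chosen later. Alternatives were other normalizations, tests, filters, pseudocounts, a batch term, a replicate block, definitions of the balance, and each library left out. All library columns were matched by name.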

Additional observations from a re-analysis of the deposited data

Results flagged for a closer look

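In 36 groups of 4 libraries (members and marker sums in each tissue), 2 held a library whose gap to the nearest other exceeded 0.829 of the range of the group, the limit of Dixon's test, which chance passes in about 1 of 20 groups. Mxi1 had 52.8 CPM in SP-Treg replicate 1, apart from the other SP-Treg libraries (gap over range 0.842). The summed CPM of the B cell genes was 107 in SP-Treg replicate 2 (gap over range 0.845).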

How the results depend on the processing

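The count of called members was 1 and fell to 0 with limma-voom, on log2(FPKM + 1) and log2(FPKM + 0.1), without a filter, and with a batch term, and was between 0 and 1 when a library was left out. The cause was not tested. Over 152 values of the other members under alternatives none passed the threshold, with a lowest adjusted p of 0.13, and 13 changed sign. Mxd3 became -0.169 with limma-voom, -0.017 and -0.040 on log2(FPKM + 1) and log2(FPKM + 0.1), -0.067 with the replicate block and 0.864 with a batch term, and lay between -0.381 and 0.198 when a library was left out. Mxi1 lay between -0.026 and 0.285 when a library was left out, and Mnt became -0.097 with a batch term. On log2(FPKM + 1) and log2(FPKM + 0.1), Mga became 0.009 and 0.009 and Mlx -0.14 and -0.15.

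The coregulators had 1 call with DESeq2, and between 0 and 1 when a library was left out. The turnover list had 0 calls with a batch term and with the replicate block, and between 0 and 1 when a library was left out. Of the MYC-activated genes, 4 were called with a batch term and 9 on log2(FPKM + 1) by limma-trend, an alternative added after the data had been seen. Of the MYC-repressed genes, 4 were called with DESeq2, 2 with the replicate block and 2 on log2(FPKM + 1), and between 1 and 2 when a library was left out. The balance kept its direction, with differences from -1.02 to -0.86 under the other definitions and from -1.24 to -0.68 when a library was left out. No member transcript was called under the alternatives run. Without SP-Treg replicate 1, also added later, the plasma cell sum changed from -0.063 to 0.02 and the plasmacytoid dendritic cell sum from 0.09 to -0.219 (log2).

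Replicate numbers did not pair the tissues: the deviations of libraries with the same number correlated at -0.106, 0.059, -0.176 and 0.040. With the replicate block 948 genes were called against 1172, and Myc was at -0.96 (adjusted p = 0.017, edgeR).

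Limits are the 4 libraries per tissue, the 1 BM-Treg library in batch 3, and transcript counts that are estimates. At this depth Mycn was not detectable, and Mxd3 and, in BM-Treg, Hk2 rested on few reads.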
